A study of Homo sapiens with 6 samples.

Results

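The 9 tubular injury marker genes HAVCR1, LCN2, CLU, VCAM1, ICAM1, CD24, PROM1, DCDC2 and ANXA3 were read out in HK-2 cells, a human proximal tubular epithelial line immortalised with papillomavirus genes. The 9 were picked by name from the 41497 named entries of the gene tables, as markers of injured tubule cells and of cells that fail to complete repair. The rule itself uses no measured value, but it was set with earlier results of these data known. Each of them had a single entry on a primary chromosome. After 24 hours with TGF-β1, 6 of the 9 were lower by at least 2-fold, namely HAVCR1, LCN2, VCAM1, CD24, DCDC2 and ANXA3. CLU was higher. No change was called for ICAM1, and PROM1 had too few reads to be tested.

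Proximal tubule cells that are injured lose their transport programme and switch on genes that the healthy tubule keeps low. These include a phagocytic receptor (HAVCR1, the protein KIM-1), a secreted siderophore carrier (LCN2, the protein NGAL) and adhesion molecules for leukocytes (VCAM1 and ICAM1). Most tubule cells later shut these genes off, while cells in failed repair keep part of them on, and TGF-β is a profibrotic cytokine that acts through SMAD proteins in this setting.

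Both groups were wild-type HK-2 cells, 3 libraries without treatment (control) and 3 with TGF-β1, all collected at 24 hours. The maintenance medium held 10% fetal bovine serum, while the study's general methods place TGF-β experiments in medium without serum at a given concentration. A higher concentration is given for its oxygen consumption experiment. Which concentration and medium were used for the sequenced cells, and whether the controls were kept without serum, is not stated for these libraries. Nothing in the labels says that the libraries of a group came from separate cultures, so p values measure the spread between these libraries, which may be technical.

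Library totals ran from 21.9 to 26.9 megacounts (M). The groups separated on the first principal component (69.7% of the variance), and on the second (9.94%) TGF-β1 replicate 1 lay at 26.9 while the other 2 TGF-β1 libraries lay at -13.2 and -15.1. Of 7 textbook TGF-β response genes used to check the treatment labels, 7 were called higher, with COL1A1, the main fibrillar collagen chain, rising by 3.30 ± 0.06 (log2 fold change ± SE). The labelled cell type was checked on 29 genes of the differentiated proximal tubule. Only 12 of them had enough reads to be tested, and the receptor LRP2 and the transporters SLC5A12 and SLC22A6 had 0 reads in every library. Others were expressed, with control means of 85.9 TPM for GGT1, 51.3 TPM for PDZK1 and 22.7 TPM for DPP4. Markers of other nephron segments were at or near 0, with a summed level of 0.369 to 0.619 TPM in control and 0.0996 to 0.1403 TPM in TGF-β1 libraries over 10 genes, 6 of which had 0 reads throughout.

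Against this background, 22.1% of the 14860 genes tested were called lower with TGF-β1 and 22.2% were called higher, by the edgeR quasi-likelihood test at an adjusted p under 0.05. A fall of at least 2-fold was called for 5.38% of genes. Of the 8 injury markers tested, 6 were called lower, all of them by at least 2-fold, and 1 was called higher. Their median log2 fold change was -1.26, beside 0.0063 over all genes tested. In 6 of the 8 every TGF-β1 library lay below every control library, which held for 27.7% of all genes tested. The markers were not drawn at random, so these shares describe the list and test nothing. With scaling by total counts alone, the median of all genes moved by -0.11 and only 31.7% of all calls were higher, against 50.05% with TMM scaling. The count of markers called was 6 lower and 1 higher under both. Levels below are in CPM (counts per megacount of the library size, scaled by TMM) and are followed by the mean ± SD of 3 libraries.

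**Figure D1:**
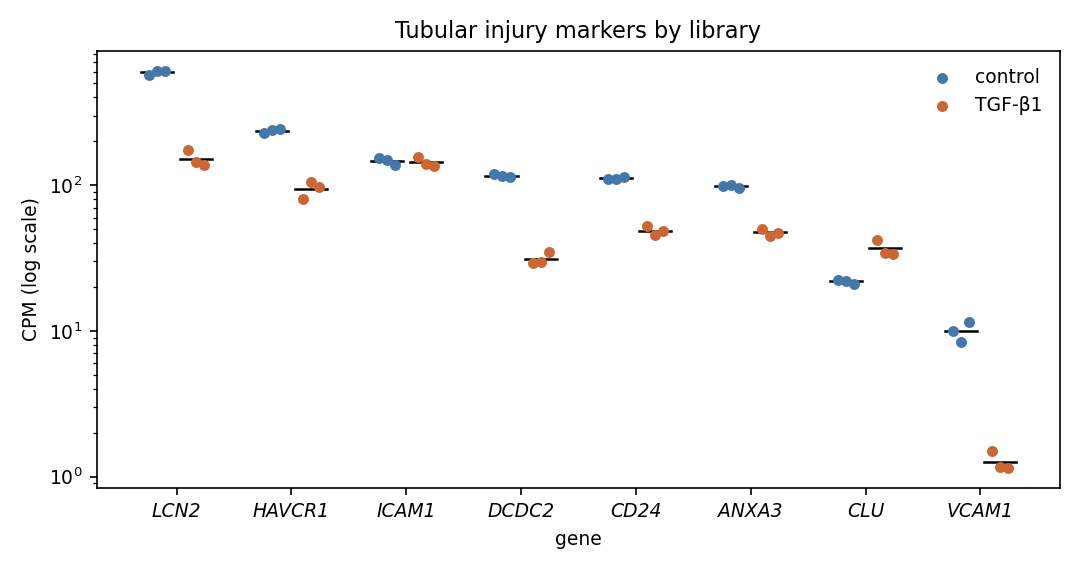
Level of each injury marker tested in every library, in CPM on a log axis. Points are the 3 control and 3 TGF-β1 libraries, and lines give the mean of each group. The groups are apart for HAVCR1, VCAM1, LCN2, CLU, CD24, DCDC2 and ANXA3 and overlap for ICAM1. PROM1, with 2 reads in control and 1 read in TGF-β1 libraries, is left out.

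Promoter sequence is shown for VCAM1 and LCN2, the markers with the steepest falls, and for ICAM1, for which no change was called. Each line holds the 250 bases before the annotated start, 5′ to 3′ on the plus strand, which is the strand of all 3 genes, taken from RefSeq on GRCh38.p14. Capitals mark exact matches on either strand to the NF-kappaB consensus GGGRNWYYCC or to the AP-1 motif TGANTCA. In these, R is A or G, Y is C or T, W is A or T and N is any base. The regions are chr1:100719492-100719741 for VCAM1, chr9:128149203-128149452 for LCN2 and chr19:10270870-10271119 for ICAM1.
VCAM1: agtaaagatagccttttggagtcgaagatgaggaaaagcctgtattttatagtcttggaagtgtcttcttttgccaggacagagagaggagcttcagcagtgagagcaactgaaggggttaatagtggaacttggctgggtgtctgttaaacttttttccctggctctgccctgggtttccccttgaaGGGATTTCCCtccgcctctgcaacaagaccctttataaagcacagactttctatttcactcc
LCN2: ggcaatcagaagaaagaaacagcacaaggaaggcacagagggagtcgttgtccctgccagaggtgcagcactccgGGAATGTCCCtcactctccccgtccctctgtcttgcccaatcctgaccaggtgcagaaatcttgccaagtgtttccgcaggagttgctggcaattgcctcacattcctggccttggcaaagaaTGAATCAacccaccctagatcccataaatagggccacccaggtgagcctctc
ICAM1: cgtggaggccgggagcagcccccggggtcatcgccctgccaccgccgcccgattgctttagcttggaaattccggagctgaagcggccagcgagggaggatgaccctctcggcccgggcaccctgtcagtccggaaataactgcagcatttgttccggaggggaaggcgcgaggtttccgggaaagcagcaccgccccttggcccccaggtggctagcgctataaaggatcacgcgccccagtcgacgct

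The VCAM1 window held 1 NF-kappaB match, 62 to 53 bases before the start. The LCN2 window held 1 NF-kappaB match, read on the opposite strand, at 175 to 166 bases before the start and 1 AP-1 match at 52 to 46 bases. The ICAM1 window held no exact match to either set of letters. It did hold tggaaattcc, which differs from the NF-kappaB consensus only in its first letter. The VCAM1 window also held gggtttcccc, which differs from that consensus in a single letter. Such near matches were not counted in any window. Among 35116 promoter windows of the same length, 5.21% held an NF-kappaB match and 6.57% an AP-1 match. The short SMAD-type letters CAGAC, or GTCTG on the other strand, occurred in 38.0% of all windows. They were found at 2 places in the VCAM1 window and at none in those of LCN2 and ICAM1. They also occurred once each in windows of HAVCR1 and CD24 and at 4 places over the 4 windows of PROM1, and not in those of ANXA3 and DCDC2. The windows of HAVCR1 (chr5:157059117-157059366), DCDC2 (chr6:24358060-24358309) and CD24 lay inside the gene spans given below. They are therefore not those at the outer ends of these spans. A window was listed for 8 of the 9 markers. Of the other 5 with one, CD24 had an NF-kappaB match, found in 2 of its 3 windows, and a window at an internal start of PROM1 had an AP-1 match. These matches describe letters only, and binding was not measured.

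HAVCR1 encodes KIM-1, a membrane receptor by which injured tubule cells take up dying neighbours, and the gene lies on chromosome 5 at 157028383 to 157069633 (hg38, minus strand). It stood at 227.7, 238.6 and 241.6 CPM in the control libraries and at 80.3, 105.5 and 96.7 CPM with TGF-β1. The groups did not overlap, and TGF-β1 replicate 1 was the lowest library. On average HAVCR1 fell 2.51-fold, from 236 ± 7.31 to 94.2 ± 12.8 CPM (log2 fold change -1.33 ± 0.09, SE; 95% interval -1.52 to -1.13; adjusted p = 1.3e-06).

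LCN2 (chromosome 9, 128149453 to 128153453) encodes neutrophil gelatinase-associated lipocalin, which binds iron-carrying siderophores and is shed into urine after tubular damage. Control libraries held 571.5, 605.75 and 611.4 CPM, and TGF-β1 libraries held 173.7, 143.4 and 136.985 CPM. Every TGF-β1 library was below every control library. LCN2 fell from 596 ± 21.6 to 151.4 ± 19.6 CPM, which is 3.94-fold lower (log2 fold change -1.98 ± 0.09; 95% interval -2.17 to -1.79; adjusted p = 3.3e-08).

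LCN2 also made up the greatest share of the markers' reads. Summed over the 9 genes, the level was 1338 ± 19.6 CPM in control and 555 ± 28.1 CPM in TGF-β1 libraries. The share of LCN2 in that sum was 44.6 ± 0.993% in control and 27.2 ± 2.10% with TGF-β1. The drop in the sum was therefore carried by LCN2 more than by any other marker.

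CLU, on chromosome 8, encodes clusterin, a secreted chaperone that is induced in damaged tubules, and it was the only marker called higher. Its level was 22.5, 22.1 and 20.97 CPM in control and 42.2, 34.4 and 33.8 CPM in TGF-β1 libraries. The TGF-β1 libraries lay above all controls, with replicate 1 the highest. CLU rose from 21.9 ± 0.802 to 36.8 ± 4.70 CPM, which is 1.68-fold higher (log2 fold change 0.75 ± 0.09; 95% interval 0.56 to 0.95; adjusted p = 5.4e-05). Its gene overlaps the end of EPHX2 on the opposite strand, for which no change was called (log2 fold change -0.15 ± 0.14), and the strand setting of the counting is not stated.

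VCAM1 (chromosome 1, 100719742 to 100739045) encodes the vascular cell adhesion molecule that holds leukocytes through integrin α4β1 and that marks tubule cells in failed repair. It had 227, 204 and 269 reads in the control libraries and 39, 28 and 24 reads with TGF-β1. In CPM these were 10.06, 8.34 and 11.46 against 1.498, 1.158 and 1.146, so the lowest control library was well above the highest TGF-β1 library. The mean fell from 9.95 ± 1.56 to 1.27 ± 0.200 CPM, which is 7.79-fold lower and the largest change among the markers tested (log2 fold change -2.96 ± 0.17; 95% interval -3.34 to -2.58; adjusted p = 1.9e-07).

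ICAM1 (chromosome 19, 10271120 to 10286615) encodes the other leukocyte adhesion molecule of the list, a ligand of β2 integrins. Control libraries held 153.4, 149.9 and 137.9 CPM and TGF-β1 libraries held 156.7, 138.7 and 135.1 CPM. In CPM the ranges overlapped, and the highest value of all 6 libraries was that of TGF-β1 replicate 1. In the deposited TPM they did not overlap, with 157.6 to 169.1 TPM in control and 141.0 to 156.8 TPM in TGF-β1 libraries. The means were 147.02 ± 8.13 and 143.5 ± 11.6 CPM (log2 fold change -0.035 ± 0.068; adjusted p = 0.713). The 95% interval of the difference ran from -12.1% to 8.40%, so a change of the size seen in the other markers lay outside it. Without TGF-β1 replicate 1 the log2 fold change was -0.11 (adjusted p = 0.0613), and over all alternative fits the adjusted p ran from 0.0613 to 0.988. The gene overlaps LOC105372272 on the opposite strand, which had 1 or 2 reads in each library.

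CD24 (chromosome 6, 106969831 to 106976855) encodes a small glycosylated surface protein that marks scattered, progenitor-type cells of the human tubule. The control libraries stood at 110.9, 110.9 and 114.2 CPM and the TGF-β1 libraries at 52.7, 45.4 and 48.3 CPM, with no overlap. CD24 fell from 112.0 ± 1.94 to 48.8 ± 3.67 CPM (log2 fold change -1.20 ± 0.06; 95% interval -1.34 to -1.06; adjusted p = 9.1e-08). CD24 has processed copies elsewhere in the genome, so reads shared with a copy make its absolute level uncertain.

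PROM1 (chromosome 4, 15968226 to 16084059) encodes CD133, the surface protein that is used together with CD24 to mark the same scattered cells. It had 2 reads in control replicate 1, 1 read in TGF-β1 replicate 2 and 0 reads in the other 4 libraries. In total this was 2 of 67.9 M counts against 1 of 73.8 M, a ratio of 0.460 with an exact 95% interval of 0.00779 to 8.83 that covers counting error only. The exact conditional test gave p = 0.610 and the exact permutation test of the library values, both two-sided, gave p = 1, where 0.1 is the smallest possible. A difference was not detectable at this depth.

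DCDC2 (chromosome 6, 24171755 to 24383292) encodes a doublecortin-domain protein of the primary cilium that binds microtubules. Its level was 119.9, 114.9 and 114.5 CPM in control and 29.4, 29.6 and 35.0 CPM with TGF-β1. The groups were far apart, and the mean fell from 116.4 ± 2.997 to 31.3 ± 3.19 CPM, which is 3.72-fold lower (log2 fold change -1.90 ± 0.07; 95% interval -2.06 to -1.73; adjusted p = 9.1e-09). KAAG1 lies inside DCDC2 on the opposite strand. Its reads numbered 11, 21 and 15 in the control libraries against 8, 9 and 4 with TGF-β1 (log2 fold change -1.16 ± 0.37; adjusted p = 0.0256), and without a stated strand setting its reads cannot be told from those of DCDC2.

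ANXA3 (chromosome 4, 78551761 to 78610447) encodes a calcium-dependent phospholipid-binding annexin. Control libraries held 99.3, 100.5 and 95.5 CPM and TGF-β1 libraries held 50.3, 45.1 and 47.1 CPM. The ranges did not overlap, and the mean fell from 98.4 ± 2.65 to 47.5 ± 2.62 CPM (log2 fold change -1.05 ± 0.06; adjusted p = 1.5e-07). Its 95% interval, -1.18 to -0.92, included the 2-fold limit.

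TGF-β1 replicate 1, which lay apart on the second principal component, was the highest TGF-β1 library for 6 of the 8 markers tested and the lowest for 2, HAVCR1 and DCDC2. Its part in the results was not tested, and without it the calls of all 8 markers were as with it.

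**Figure D2:**
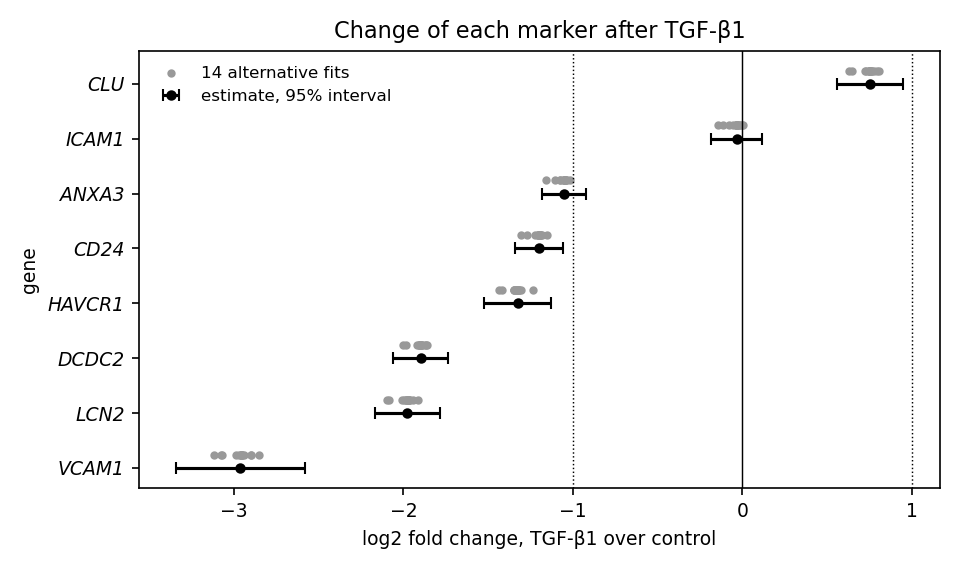
Log2 fold change of the 8 injury markers tested, TGF-β1 against control, with 95% intervals from the edgeR fit. HAVCR1, VCAM1, LCN2, CD24, DCDC2 and ANXA3 lie left of 0, CLU lies right of it, and the interval of ICAM1 spans 0.

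Levels of different genes were compared per length, in the deposited TPM values. In control cells LCN2 was highest at 2421 ± 128 TPM. HAVCR1 at 241 ± 11.6 TPM and ANXA3 at 206 ± 3.45 TPM followed, then ICAM1 at 165 ± 6.27, CD24 at 105 ± 3.67 and DCDC2 at 80.2 ± 1.10 TPM. CLU at 23.3 ± 0.448 TPM, VCAM1 at 10.7 ± 1.81 TPM and PROM1 at 0.0174 TPM came last, and no neighbours in this order had overlapping ranges. With TGF-β1, LCN2 was still highest at 565 ± 57.6 TPM. ICAM1 came next at 148 ± 8.03 TPM, ahead of ANXA3 at 91.4 ± 2.52 and HAVCR1 at 88.7 ± 14.4 TPM, whose ranges overlapped. CD24 at 42.1 ± 2.00 TPM and CLU at 36.0 ± 3.57 TPM also overlapped, and DCDC2 at 19.9 ± 2.28 TPM, VCAM1 at 1.25 ± 0.160 TPM and PROM1 at 0.00779 TPM followed. HAVCR1 thus passed from rank 2 to rank 4, while ICAM1 moved from rank 4 to rank 2 and CLU from rank 7 to rank 6.

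**Figure D3:**
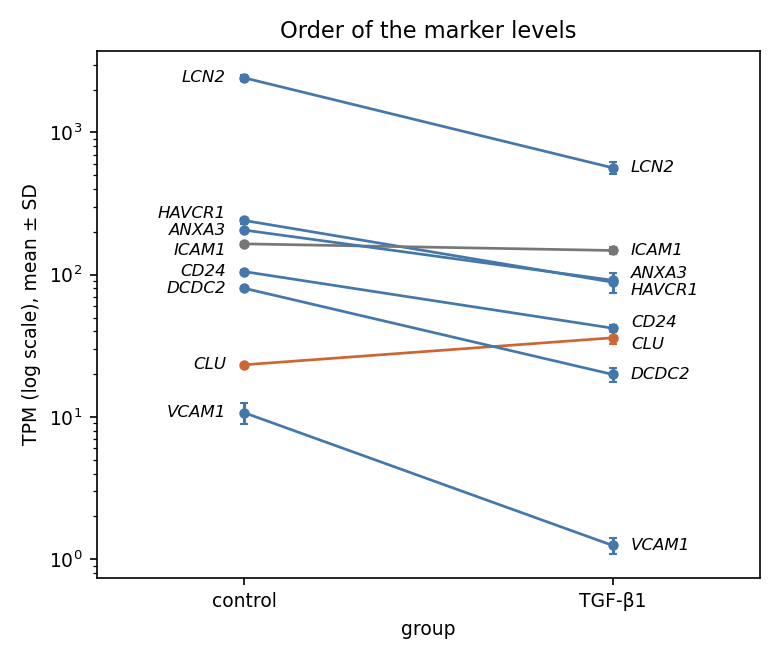
Level per length of the injury markers in control and TGF-β1 libraries, in TPM on a log axis. Points are means of 3 libraries and bars are SDs. LCN2 is highest in both groups, the line of ICAM1 falls slightly and crosses those of HAVCR1 and ANXA3, and CLU crosses DCDC2. PROM1, at 0.0174 and 0.00779 TPM, is left out.

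A list of other injury and failed-repair genes was set beside the 9 markers, and its members went both ways. Of 40 genes listed in the tables, 35 were tested, 17 were called higher and 13 lower, with a median log2 fold change of 0.087. The shares over all genes tested, 22.2% higher and 22.1% lower, stand beside this list and those below. SOX9, a transcription factor of regenerating tubule, rose from 1.41 ± 0.184 to 12.8 ± 1.46 CPM (log2 fold change 3.18 ± 0.14). KRT7, a keratin of simple epithelia, rose by 2.35 ± 0.07 and AKAP12, a kinase scaffold, by 1.82 ± 0.10. ITGB8, the integrin β8 subunit that binds latent TGF-β, fell from 223 ± 4.44 to 15.3 ± 0.873 CPM (log2 fold change -3.87 ± 0.06). BIRC3, an inhibitor of apoptosis, fell from 148 ± 8.14 to 14.7 ± 2.00 CPM (log2 fold change -3.34 ± 0.09). GDF15, a secreted stress cytokine, had a log2 fold change of -2.56 ± 0.11. KRT20, a keratin of damaged tubule, had 0 reads in all libraries at its entry on a primary chromosome, and the name has 2 entries.

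Partners of the marker proteins, such as receptors, ligands, cytoskeletal linkers and a protease, were measured next. Of 17 listed, 10 were tested, 4 were called higher and 4 lower, with a median of 0.084. ITGB1, the integrin β1 chain of the VCAM1 receptor, rose from 1648 ± 20.7 to 3002 ± 273 CPM (log2 fold change 0.86 ± 0.07). Its α4 partner ITGA4 had 6 reads in control and 8 in TGF-β1 libraries. SLC22A17, an LCN2 receptor, rose by 0.80 ± 0.12 and MSN, the cytoskeletal linker moesin, by 0.67 ± 0.06. ITGB2, the β2 chain of ICAM1 receptors, had a log2 fold change of -0.73 ± 0.12, EZR, the linker ezrin, one of -0.44 ± 0.05, and LRP8, a clusterin receptor, one of -0.35 ± 0.08. The LCN2 and CLU receptor LRP2, the integrin chain ITGAL and the selectin SELP had 0 reads.

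Relatives of the markers in the same gene families were also listed. Of 30 listed, 20 were tested, 5 were called higher and 7 lower, with a median of -0.18. Of all genes tested, 22.2% were called higher and 22.1% lower, so these counts are not read as a result about the families. Among annexins, ANXA8 rose by 1.37 ± 0.21, while ANXA13 and ANXA1 had log2 fold changes of -1.61 ± 0.25 and -0.88 ± 0.07. ANXA2, the most abundant of those named here at 802 ± 21.4 CPM in control and 812 ± 34.1 CPM with TGF-β1, was not called (0.018 ± 0.055). In the ICAM family, ICAM3 rose by 0.47 ± 0.12 and ICAM5 was not called (0.19 ± 0.09). The doublecortin family kinase DCLK2 rose by 1.77 ± 0.10, and the lipocalin LCN10 fell, with a log2 fold change of -1.16 ± 0.17.

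Among the 12 tested genes of the differentiated proximal tubule, 4 were called higher and 6 lower, with a median of -0.43, and with scaling by total counts alone 1 was called higher and 6 lower. AQP1, a water channel, rose by 2.10 ± 0.39 from a low level of 0.396 ± 0.249 CPM. GATM, a creatine synthesis enzyme, rose by 0.33 ± 0.09 and PDZK1, an apical scaffold, by 0.31 ± 0.09. The brush border peptidases DPP4 and MME had log2 fold changes of -0.88 ± 0.07 and -0.60 ± 0.14, and the inositol oxygenase MIOX had one of -0.60 ± 0.13.

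Markers of other cell types were read beside the immune adhesion genes. Of 7 leukocyte genes, 2 were tested and both were called lower. They were CD14 (-1.72 ± 0.25) and CD68 (-0.44 ± 0.11), a lysosomal protein that made up most of the summed level of 189 to 202 TPM in control and 112 to 149 TPM in TGF-β1 libraries. The pan-leukocyte gene PTPRC had 2 reads in each group, and LST1, CD3E and TYROBP had 0. Only entries on a primary chromosome were read here, and LST1 has 8 entries and PTPRC has 2. Of 6 endothelial genes, only CDH5 was tested and it was called lower, with 62 reads in control and 0 in TGF-β1 libraries, and the summed level was 0.670 to 1.15 TPM and 0.0420 to 0.0765 TPM. Of 8 fibroblast and pericyte genes, 4 were tested, PDGFRB was called higher (3.38 ± 0.18), and RGS5 (-0.35 ± 0.12), LUM (-0.28 ± 0.07) and THY1 (-1.72 ± 0.33) were called lower, while COL1A2 had 0 reads in control and 1 with TGF-β1. Their summed level was 74.96 to 90.2 TPM in control and 61.2 to 65.4 TPM in TGF-β1 libraries. Most of it came from LUM, with means of 77.0 TPM in control and 58.5 TPM with TGF-β1. The part of these genes in the results for the markers was not tested.

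**Figure D4:**
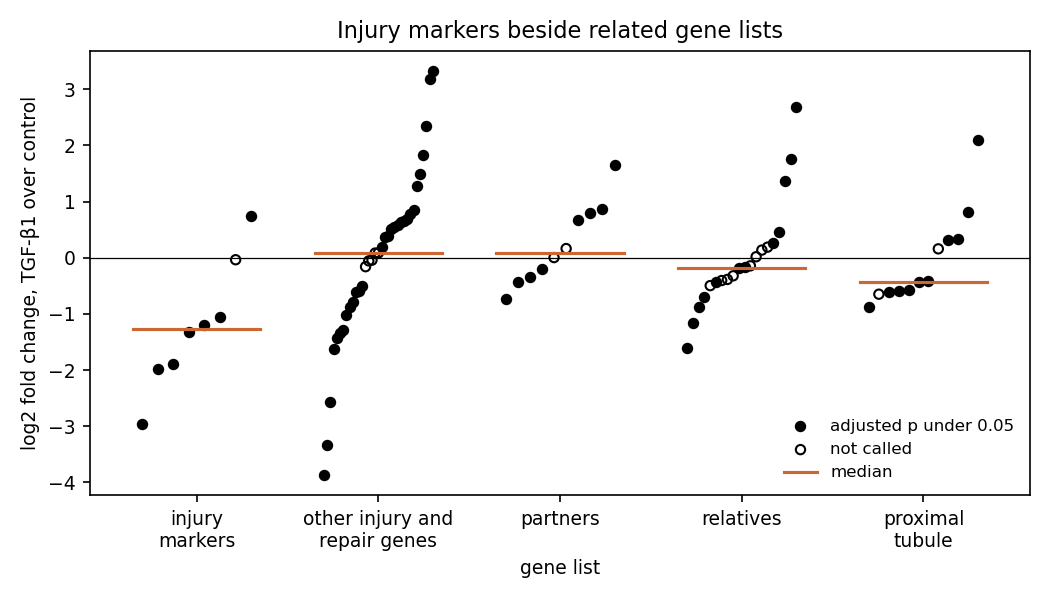
Log2 fold change of each tested gene of the injury markers and of the lists beside them, TGF-β1 against control. Each point is a gene, filled where its adjusted p was under 0.05 and open where it was not called, and bars mark the median of each list. Of the 8 markers tested 6 were called lower and 1 higher, while of 35 other injury genes 17 were called higher and 13 lower.

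Genes within 100 kb of the markers were examined for shared direction. Of 47 named neighbours, 30 were tested and 13 were called, 6 higher and 7 lower. That is 43.3% of the neighbours tested, beside 44.3% of all genes tested. ICAM1 has no called direction. Of the 11 called neighbours of markers that were themselves called, 8 went the way of the marker. Without KAAG1, which overlaps DCDC2, 7 of 10 did so. Calls over all genes were split almost evenly, with 3294 higher and 3288 lower. The neighbours that went the way of the marker include SLC25A25-AS1, PTGES2, PTGES2-AS1 and BBLN, which all lie near LCN2 and are not separate cases. A part of position in these directions was not tested. Next to HAVCR1, its family member HAVCR2, which encodes TIM-3 and lies 16199 bases away, went the opposite way, with 5, 8 and 3 reads in control and 44, 36 and 26 reads with TGF-β1 (log2 fold change 2.68 ± 0.32; adjusted p = 6.4e-05).

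Of 8 tested neighbours of LCN2, 5 were called. The antisense RNA SLC25A25-AS1, 30719 bases away, went from 30.5 ± 0.974 to 5.89 ± 0.447 CPM (log2 fold change -2.38 ± 0.08; adjusted p = 3.4e-09). BBLN, PTGES2 and PTGES2-AS1 had log2 fold changes of -0.72 ± 0.11, -0.71 ± 0.07 and -0.88 ± 0.19, while DNM1 was called higher at 0.19 ± 0.05. PTGES2-AS1 is the antisense neighbour of PTGES2 and does not overlap it in the annotation.

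Near ICAM1, for which no change was called, S1PR2 rose by 0.52 ± 0.15 and ICAM3 by 0.47 ± 0.12. SCARA3, a scavenger receptor gene beside CLU, rose by 0.49 ± 0.09, and BEND3 beside CD24 rose by 0.40 ± 0.12. GPLD1 near DCDC2 had a log2 fold change of -0.71 ± 0.25 and FRAS1, an extracellular matrix gene 7492 bases from ANXA3, one of -0.68 ± 0.15. VCAM1 had no tested neighbour within this distance.

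**Figure D5:**
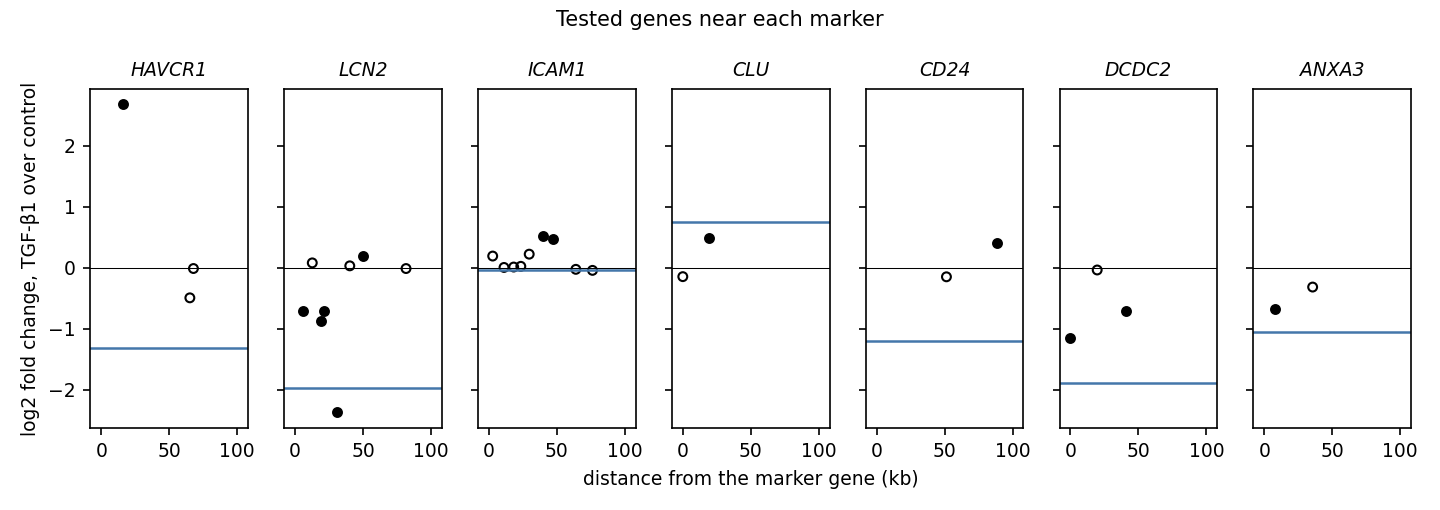
Log2 fold change of tested genes within 100 kb of an injury marker, by distance in kb from that marker's gene. Panels are given for HAVCR1, LCN2, ICAM1, CLU, CD24, DCDC2 and ANXA3, each with a blue line at the marker's own log2 fold change. VCAM1, which had no tested neighbour, and PROM1, whose only tested neighbour TAPT1 was not called, are left out. Filled points had an adjusted p under 0.05, and open points were not called. HAVCR2 lies above 0 beside HAVCR1, and SLC25A25-AS1 near LCN2 lies close to the LCN2 line at -1.98.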

How the data were processed

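RNA was measured in 3 control and 3 TGF-β1 libraries of HK-2 cells, from poly(A) mRNA reverse transcribed with random hexamers and sequenced as paired-end reads. The authors filtered out adapter and low-quality reads, and the submitters' processing notes name CASAVA, featureCounts 2.0.1, DESeq2 1.16.1 and hg38. The aligner and the strand setting are not given in the sources used here. Each deposited table gives raw counts per gene, from which all tests were made. The deposited TPM values, computed by the authors, were used to compare levels between genes, and the deposited FPKM values were not used further. Each table had 42095 entries, of which 598 loci without a name (0.396% to 0.464% of counts) were left out. For each library, 7 records were broken over lines and were put back together.

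Groups came from the treatment labels. Genes were kept by filterByExpr of edgeR 4.0.16 at its minimum count of 10, leaving 14860, scaled by TMM and compared with the two-sided quasi-likelihood F test with robust dispersion. Benjamini-Hochberg adjustment covered all genes tested, and a call needed an adjusted p under 0.05. The SE is the size of the log2 fold change divided by the square root of F. Totals of 21.9 to 26.9 M (megacounts) per library set the precision of low genes such as PROM1. Intervals of read ratios are exact and cover counting error only. The tests were checked on simulated data, where the share of unchanged genes among the calls was above the 0.05 threshold for edgeR, limma-voom and DESeq2. It was highest for DESeq2. Far fewer genes were changed in that simulation than were called here, and the share depends on how many are changed. It is therefore not an error rate of the calls reported here.

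The markers, the 9 lists beside them and the tests were chosen with earlier results of these data known. From each list, up to 3 called genes per direction with a mean of at least 1 CPM were named, those with the largest changes. Genes with 0 or few reads, genes that were not called, GGT1 and the rest of the small cell type lists were named after their values were seen. Called neighbours within 100 kb were named as well. Likeness of pattern was Pearson's r of log2 CPM (prior count 2) over genes averaging 5 CPM or more. Alternatives were DESeq2 1.42.0, limma-voom (limma 3.58.1), RLE factors, total counts alone, all entries with a count, a mean of at least 50 counts, a replicate block, entries of a name summed, leaving out each library and, for the order of levels, CPM per kb. Other software was R 4.3.3, Python 3.11.15, pandas 2.3.3 and scipy 1.17.1.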

Additional observations from a re-analysis of the deposited data

How the results depend on the processing

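Under the 14 alternative fits, 6 markers were called lower and 1 higher each time, and 111 of the 112 recomputed log2 fold changes had the same direction and the same side of the threshold as reported. The exception was ICAM1, which was never called and whose log2 fold change ran from -0.11 to 0.0040 when single libraries were left out, the upper value without TGF-β1 replicate 3. Over the alternatives the log2 fold change ran from -3.12 to -2.85 for VCAM1, -2.10 to -1.91 for LCN2, -2.00 to -1.86 for DCDC2, -1.43 to -1.23 for HAVCR1, -1.31 to -1.15 for CD24, -1.16 to -1.02 for ANXA3, 0.63 to 0.81 for CLU and -0.14 to 0.0040 for ICAM1. Scaling by total counts alone called 2134 genes higher and 4590 lower, against 3294 and 3288 as reported. DESeq2 called 2947 and 2710. Its share of unchanged genes among calls was the highest on simulated data, where far fewer genes were changed than were called here. The order of levels per length was the same with CPM per kb.

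Whether the replicate numbers pair the libraries could not be settled from these data. Deviations from the group means of same-numbered libraries correlated at 0.111, -0.0117 and 0.0762. Control replicates 2 and 3 correlated best with a library of another number, and control replicate 1 with that of its own. Deviations within a group of 3 depend on each other, so these values cannot exclude pairing. With the number as a block, 3396 genes were called higher and 3394 lower, against 3294 and 3288 without it. The log2 fold changes of VCAM1, ICAM1 and HAVCR1 with the block were -2.96, -0.037 and -1.33. Depth limits PROM1, with 3 reads in all.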

Other observations

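Over the 6 libraries, the genes whose log2 CPM followed a marker most closely were listed as a description, without a test, from 10719 genes averaging 5 CPM or more. All points share the same 6 libraries in 2 groups, so any gene with a clear group difference correlates with any other. HAVCR1 was followed most closely by ADGRG6 (Pearson's r = 0.9997), an adhesion G protein-coupled receptor gene, then LINC00472 and TMTC4, with log2 fold changes of -0.93 ± 0.07, -1.44 ± 0.10 and -0.72 ± 0.08. For LCN2 they were STK32B (r = 0.9997), PRKD1 and TMEM14B, with -1.58 ± 0.10, -0.81 ± 0.07 and -0.64 ± 0.05. For VCAM1 they were SAT1, AREG and CISD1 (r = 0.998 each), with -0.68 ± 0.06, -2.45 ± 0.13 and -0.24 ± 0.06. AREG encodes amphiregulin, a ligand of the epidermal growth factor receptor, and SAT1 an enzyme of polyamine breakdown.

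An r over 0.95 was reached by 1120 genes for HAVCR1, 1086 for LCN2 and 1038 for VCAM1. For ICAM1, whose groups overlapped in CPM, it was reached by 41. The closest to ICAM1 were HIGD2A (r = 0.994), UBAC1 (r = 0.993) and MRPL10 (r = 0.990), and none of the 3 moved by more than 0.05 on the log2 scale between groups.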
